A study of Mus musculus with 3 samples.

Results

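The cycling T cells of 4T1 mammary tumors were examined in single-cell RNA sequencing data from sorted CD45-positive cells. Cells were kept from 1500 UMIs (unique molecular identifiers, the random tags that count each captured transcript once) and 300 detected genes upward, and up to 20% mitochondrial counts. A kept cell was taken as a T cell when at least 2 of Cd3d, Cd3e, Cd3g and Trac were detected, Trdc was at 0 and the counts of C1qa, C1qb and C1qc summed to under 10. It was taken as cycling when, in addition, at least 2 of Mki67, Top2a, Birc5 and Cdk1 were detected. This rule found 119 cycling T cells among 1822 T cells and 12472 kept cells of 16143 barcodes. The vehicle library held 46 of them, p38i 45 and p38KO 28.

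Each library came from tumors of 3 female BALB/c mice that were 6 to 8 weeks old when 200000 tumor cells in matrigel were placed in the fourth mammary fat pad, and all tumors were taken on day 14. 4T1 is a mouse mammary carcinoma line of BALB/c origin. Mice of the vehicle and p38i groups carried 4T1-luc tumors with wildtype p38a and were given DPBS or LY2228820, a p38 mitogen-activated protein kinase inhibitor, at 30 mg/kg by daily gavage for 10 days from day 4. Mice of the p38KO group carried tumors of 1 clone (p38a-KO-H9) of 4T1-luc cells in which p38a had been inactivated with CRISPR-Cas9, and their labels give no treatment. The knockout was therefore in the implanted tumor cells and not in the T cells, whereas the inhibitor was given to the whole animal. Mapk14, the gene of p38a, had 22, 21 and 9 counts in the cycling T cells of vehicle, p38i and p38KO (CPM, counts scaled to a library total of 1e6, of 37.1, 39.6 and 25.2), which are host cells and do not check the knockout. Because the 3 tumors of a group were pooled into 1 library, no test between groups could be made, and every interval given here is a 95% interval for counting error within 1 library. Group and library cannot be told apart.

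T cells that meet their antigen leave quiescence, copy their DNA in S phase and divide in M phase after the G2 gap. Mki67 encodes the Ki-67 antigen of proliferating cells, Top2a the topoisomerase that untangles replicated chromosomes, Birc5 the survivin subunit of the chromosomal passenger complex, and Cdk1 the kinase that drives entry into mitosis. In tumors, dividing T cells are commonly found among CD8 effector cells, which kill target cells, and among Foxp3-expressing regulatory T cells, which restrain other T cells.

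The cycling T cells were deep. Their summed UMIs were 593199, 530284 and 357596 in vehicle, p38i and p38KO. The median cycling T cell of the vehicle library had 11867 UMIs (lowest 2818, highest 31139), that of the p38i library 10809 (1914 to 36452) and that of the p38KO library 9728.5 (2743 to 40712), against 5060, 3865.5 and 4678.5 in the other T cells of the same libraries. Detection of 2 of 4 genes is easier in a deep cell, so shares are also given after each cell was thinned to 1500 UMIs. At that depth the median cycling T cell still had slightly more detected genes (805.5, 825 and 846) than the median other T cell (776, 802 and 810.5). No barcode of a cycling T cell occurred in another library, although the libraries shared 6 (vehicle and p38i), 5 (vehicle and p38KO) and 9 (p38i and p38KO) barcodes in all.

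The values that chose the cells are a description and carry no test. Mki67 was detected in 40 of 46, 34 of 45 and 21 of 28 cycling T cells and had 249, 396 and 383 CPM, against 6.78, 11.2 and 9.72 CPM in other T cells. Top2a had 452, 666 and 666 CPM against 30.4, 29.3 and 32.0, and Birc5 had 158, 281 and 383 CPM against 0.969, 1.31 and 1.44. Cdk1 had 94.4, 206 and 168 CPM against 3.87, 3.29 and 1.80. Just inside the limit, 26, 18 and 12 cells had exactly 2 of the 4 genes, and just outside it 109, 102 and 94 T cells had exactly 1. All 4 genes were found in 13 of 46 cycling T cells in vehicle, 17 of 45 in p38i and 13 of 28 in p38KO.

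The label was checked against a T cell gene that had no part in choosing the members. Trbc2, a constant segment of the T cell receptor beta chain that the rule did not use, had 1396, 1237 and 892 CPM in cycling T cells, 1424, 1342 and 1461 CPM in other T cells and 2.79, 2.75 and 5.98 CPM in granulocytes. Trbc1 and Trbc2 are near-identical copies, so the split of reads between them is uncertain. The T cell genes of the rule are given as a description only, and 111 of the 119 members had all 4. Cd3e had 794, 783 and 682 CPM in cycling and 939, 852 and 994 CPM in other T cells, and Trac 730, 585 and 612 CPM against 809, 735 and 805 CPM. Cd3g had 1178, 1299 and 987 CPM against 1472, 1325 and 1786 CPM, and Cd3d 750, 669 and 657 CPM against 884, 966 and 961 CPM. In these values all 4 genes and Trbc2 had fewer CPM in cycling than in other T cells in every library. Granulocytes here are kept cells with at least 2 of Csf3r, Cxcr2, Retnlg, Il1r2 and Mmp9 and none of the 4 T cell genes, so that their level of T cell transcripts is a low estimate of the background.

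Cycling cells made up 8.14% of T cells in vehicle (46 of 565, exact binomial interval 6.02 to 10.7%), 6.47% in p38i (45 of 695, 4.76 to 8.57%) and 4.98% in p38KO (28 of 562, 3.34 to 7.12%). These intervals overlap for every pair of libraries. At 1500 UMIs per cell the shares were 2.65% (15 cells, 1.49 to 4.34%), 2.88% (20 cells, 1.77 to 4.41%) and 2.14% (12 cells, 1.11 to 3.70%), and the order seen at full depth, vehicle above p38i, was not kept. Granulocytes, which had a median of 2540, 2288 and 2244.5 UMIs, met the same limit on the 4 cell-cycle genes in 0.451%, 0.329% and 1.03% of cells at full depth and in 0.100%, 0 of 2430 cells (exact upper limit 0.152%) and 0.342% after thinning. The share of T cells was therefore above the granulocyte level in all 3 libraries at either depth.

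**Figure D1:**
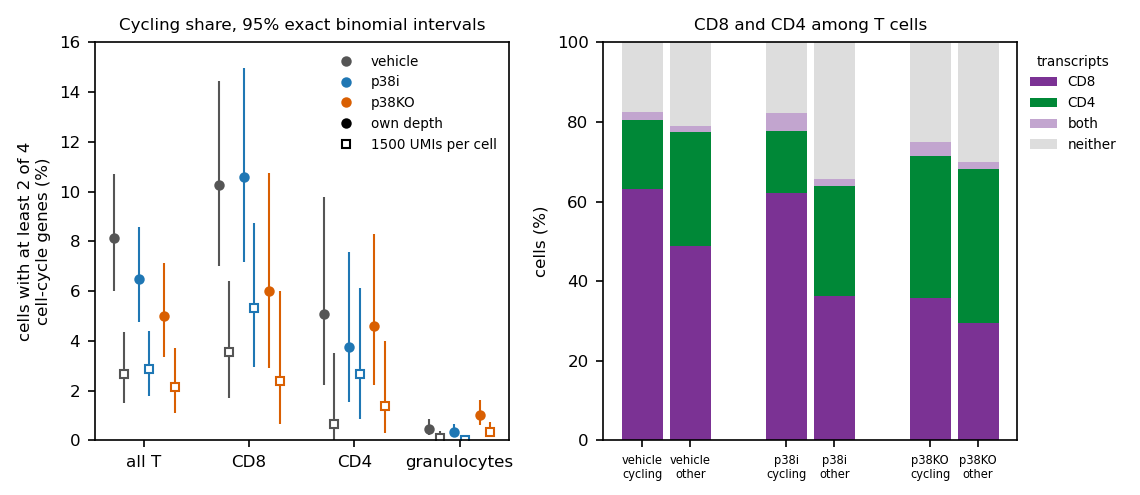
Left, percent of T cells, CD8 T cells, CD4 T cells and granulocytes with at least 2 of Mki67, Top2a, Birc5 and Cdk1 in each library, with 95% exact binomial intervals, at each cell's own depth (filled circles) and at 1500 UMIs per cell (open squares). Right, percent of cycling and other T cells with CD8 transcripts, CD4 transcripts, both or neither; CD8 makes up 63.0% and 62.2% of cycling T cells in vehicle and p38i and 35.7% in p38KO.

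CD8 cells were the larger class among cycling T cells of the vehicle and p38i libraries and were level with CD4 cells in the p38KO library. A T cell was called CD8 when Cd8a or Cd8b1 was detected and Cd4 was not, and CD4 in the reverse case. In vehicle 29 cycling T cells were CD8, 8 were CD4, 1 had both and 8 had neither. The numbers were 28, 7, 2 and 8 in p38i and 10, 10, 1 and 7 in p38KO. Of cells in 1 of the 2 classes, CD8 cells made up 78.4% (61.8 to 90.2%), 80.0% (63.1 to 91.6%) and 50% (27.2 to 72.8%). Other T cells of the same libraries had lower CD8 shares of 62.9%, 56.7% and 43.1%, in the same order of p38KO lowest. At 1500 UMIs per cell the shares were 87.5%, 92.0% and 66.7% in cycling and 72.8%, 66.8% and 57.6% in other T cells. The members are the same at that depth, but Cd4 is lost more often than Cd8a and Cd8b1. At that depth 30.4%, 44.4% and 57.1% of them had neither transcript, and CD8 cells were 60.9%, 51.1% and 28.6% of all cycling T cells. Granulocytes had a Cd8a UMI in 0.401%, 0.617% and 0.797% of cells and a Cd4 UMI in 0.100%, 0.288% and 0.513%.

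Seen from the other side, CD8 T cells cycled at 10.3% in vehicle (29 of 282, 7.00 to 14.4%), 10.6% in p38i (28 of 264, 7.16 to 15.0%) and 5.99% in p38KO (10 of 167, 2.91 to 10.7%). Thinning gave 3.55%, 5.30% and 2.40% (4 cells in p38KO). CD4 T cells cycled at 5.10% (8 of 157), 3.74% (7 of 187) and 4.61% (10 of 217), and at 0.637%, 2.67% and 1.38% after thinning. The CD8 and CD4 intervals overlapped in the vehicle and p38KO libraries, and in the p38i library the CD4 interval (1.52 to 7.56%) reached just into that of CD8. Foxp3, the transcription factor of regulatory T cells, was detected in 9, 7 and 7 cycling T cells (19.6%, 15.6% and 25.0%) and in 12.9%, 18.5% and 17.6% of other T cells, against 0.100%, 0 and 0.171% of granulocytes. At 1500 UMIs per cell the shares were 13.0%, 4.44% and 7.14% of cycling and 8.29%, 13.7% and 11.8% of other T cells, so that the order in p38KO turned. Among CD4 cells, those with Foxp3 cycled in 5 of 41, 3 of 36 and 3 of 41 cases, and those without it in 3 of 116, 4 of 151 and 7 of 176. At 1500 UMIs these were 0 of 41, 2 of 36 and 1 of 41 with Foxp3 and 1 of 116, 3 of 151 and 2 of 176 without it, so that the order in vehicle turned. These are small numbers and the intervals of both kinds of CD4 cell overlap in each library.

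How far the members were engaged in the cell cycle was read from 323 other cell-cycle genes, taken from 12 lists that cover replication, mitosis and their regulators, without the 4 genes of the rule. T cells with none of the 4 rule genes had a median of 1.24%, 1.21% and 1.24% of their UMIs in these genes. Those with 1 rule gene had medians of 1.22%, 1.22% and 1.23%. Cycling T cells with 2 of the genes had medians of 1.53%, 1.96% and 1.69%, those with 3 had 1.84%, 2.77% and 2.76%, and those with all 4 had 4.27%, 4.28% and 4.92%. All 43 members with 4 genes, 15 of 20 with 3 and 20 of 56 with 2 lay above the 95th percentile of the T cells with none in their own library (1.98%, 1.85% and 1.82%). The members are thus a mixture, and those with 2 genes overlap widely with T cells outside the rule. By library, 21 of 46, 35 of 45 and 22 of 28 members lay above that percentile. Outside the rule, 25 of 305 T cells with 1 gene did so.

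**Figure D2:**
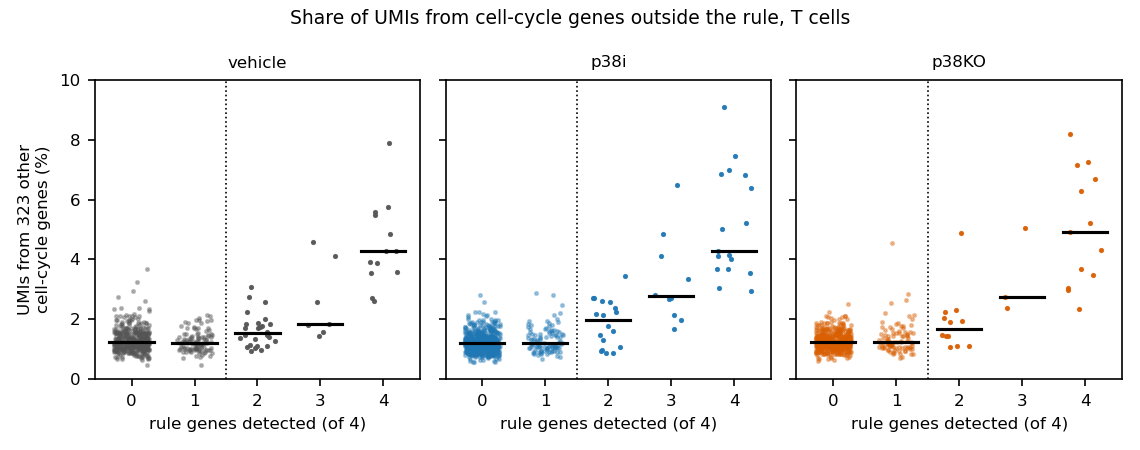
Percent of a T cell's UMIs that came from 323 cell-cycle genes outside the rule, for T cells with 0 to 4 of the rule genes in each library. Each point is a cell, bars are medians, and cells to the right of the dotted line are the cycling T cells; medians stay near 1.2% at 0 and 1 gene and reach 4.27%, 4.28% and 4.92% at 4 genes.

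Transcripts of both S phase and of G2 and M phase were present in these cells. With 43 S-phase genes and 50 G2 and M genes, rule genes left out, 20, 16 and 10 cycling T cells had more S-phase UMIs, 25, 29 and 18 had more G2 and M UMIs, and 1 vehicle cell had equal numbers. Median S-phase levels were 35.1, 39.8 and 42.3 per 10000 UMIs in vehicle, p38i and p38KO, and median G2 and M levels were 29.8, 61.8 and 59.2. The S-phase levels lay close together, whereas the G2 and M medians of p38i and p38KO were above that of vehicle. Among members with 2 rule genes the G2 and M medians were 19.3, 27.0 and 19.0, and that of p38KO was not above that of vehicle. Members with all 4 rule genes were 13 of 46, 17 of 45 and 13 of 28. Members with all 4 rule genes had G2 and M medians of 83.9, 174 and 153, and S-phase medians of 60.4, 44.7 and 52.6. The highest single cell for S phase (146) and the highest for G2 and M (384) were both in the p38KO library. Of members with all 4 rule genes, 38 of 43 had more G2 and M UMIs than S-phase UMIs. The rule genes themselves are used in G2 and M, and how far the rule chose such cells was not tested.

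**Figure D3:**
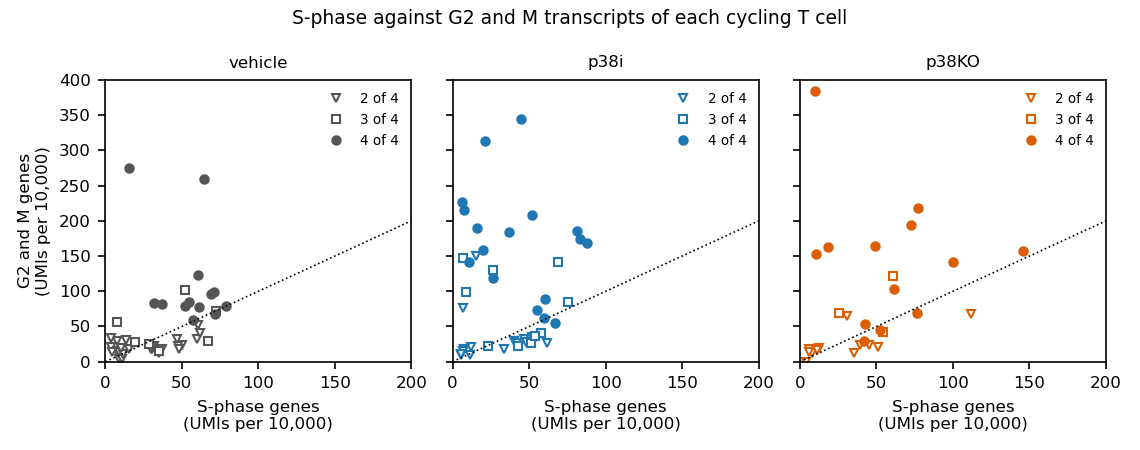
UMIs per 10000 from S-phase genes (x axis) and from G2 and M genes (y axis) of each cycling T cell in the 3 libraries, with the marker showing how many of the 4 rule genes were detected and the dotted line marking equal levels (the axes differ in scale). Most members with 2 genes lie low on both axes, and those with 4 genes reach 276, 345 and 384 on the y axis in vehicle, p38i and p38KO.

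Across all genes, cycling T cells were compared with the other T cells of the same library. A gene was counted as higher or lower when it was at least 2-fold away, its counting interval excluded no difference and both sides together had at least 20 counts. Of 8549 genes with enough counts in every library, 230 (2.69%) were higher and 110 (1.29%) lower in all 3 libraries. The median gene had a log2 ratio of -0.03, -0.09 and -0.04. Since the same cells were chosen by their cell-cycle genes, these ratios are a description of the members and not a test. The genes named next are the 24 with the largest smallest ratio over the 3 libraries among genes with at least 100 CPM in cycling T cells of each, apart from the rule genes.

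Genes of DNA synthesis were prominent among them. Pclaf, a binding partner of the replication clamp PCNA, had 494, 513 and 794 CPM in cycling T cells of vehicle, p38i and p38KO, and 5.17, 8.22 and 5.76 CPM in other T cells, which gave log2 ratios of 6.58, 5.96 and 7.11. Rrm2, the regulated subunit of ribonucleotide reductase, which makes deoxynucleotides, had 160, 202 and 336 CPM against 1.29, 4.93 and 5.04 CPM (log2 ratios 6.95, 5.35 and 6.06). The direction was the same in each library. Tk1 (thymidine kinase, log2 ratios 4.11, 4.57 and 5.57), Tyms (thymidylate synthase, 3.32, 2.98 and 3.22) and Rrm1 (2.32, 2.70 and 2.41) also supply nucleotides. The helicase subunits Mcm3, Mcm5 and Mcm7, which open the DNA at replication forks, had smaller log2 ratios between 1.89 and 2.55, with other T cells at 25.3 to 43.2 CPM. Lig1 (DNA ligase), Dut (dUTP hydrolase), Gmnn (geminin, which blocks a second round of replication), Asf1b (histone chaperone) and Hells (chromatin remodeler) completed this group. Of the fixed lists, 23 of 32 DNA replication genes, 9 of 17 nucleotide synthesis genes and 28 of 36 S-phase genes with enough counts were higher in all 3 libraries, and none was lower. Over all genes 2.69% were higher and 1.29% lower.

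Genes of mitosis were also far higher. Ube2c, the ubiquitin-conjugating enzyme of the anaphase-promoting complex, had 106, 562 and 408 CPM in cycling T cells and 1.94, 2.96 and 2.16 CPM in other T cells (log2 ratios 5.78, 7.57 and 7.56). Nusap1, a spindle protein that binds microtubules, had 150, 239 and 254 CPM against 2.26, 3.29 and 3.24 CPM (6.05, 6.19 and 6.30). Stmn1 (stathmin, a regulator of microtubules) had 371, 373 and 461 CPM against 12.6, 19.1 and 14.8 CPM. The vehicle library had the lowest level of Ube2c and Nusap1, whereas its Stmn1 level was nearly equal to that of p38i. The p38i and p38KO levels of Ube2c were several-fold above that of vehicle. Tuba1b, Tubb5 and Tubb4b (tubulins), Cks1b (a subunit of CDK complexes), Smc2 (condensin), Cenpw (kinetochore), H2afx (histone H2A.X) and Hmgb2 (a chromatin protein of dividing cells, 1883, 2612 and 2659 CPM against 448, 457 and 409 CPM) made up the rest. All 19 spindle and cytokinesis genes with enough counts, 13 of 15 kinetochore genes, 14 of 20 cyclins, CDKs and mitotic kinases, 23 of 28 chromatin genes and 29 of 35 G2 and M genes were higher in all 3 libraries. The share over all genes was 2.69%.

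Regulators were less uniform. Their counts stand beside 2.69% of all genes higher and 1.29% lower in all 3 libraries. Of 11 cell-cycle transcription factors with enough counts, 4 were higher in all 3 libraries, among them E2f1 (log2 ratios 2.90, 2.52 and 2.84) and E2f2 (1.42, 1.49 and 2.20), the E2F factors that switch on replication genes, whereas E2f4, a member of the family known for repression in resting cells, had 0.20, 0.55 and 0.17. Ccnd2, the D-type cyclin of the G1 phase, had 334, 336 and 338 CPM in cycling T cells and 529, 690 and 861 CPM in other T cells, so that it differed in direction from the mitotic cyclins. Of the replication-dependent histone genes, whose transcripts mostly lack a poly(A) tail and are poorly captured by this kit, 14 of 67 had enough counts and 5 were higher in all 3 libraries. Histone genes are near-identical copies and the split of reads among them is uncertain.

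**Figure D4:**
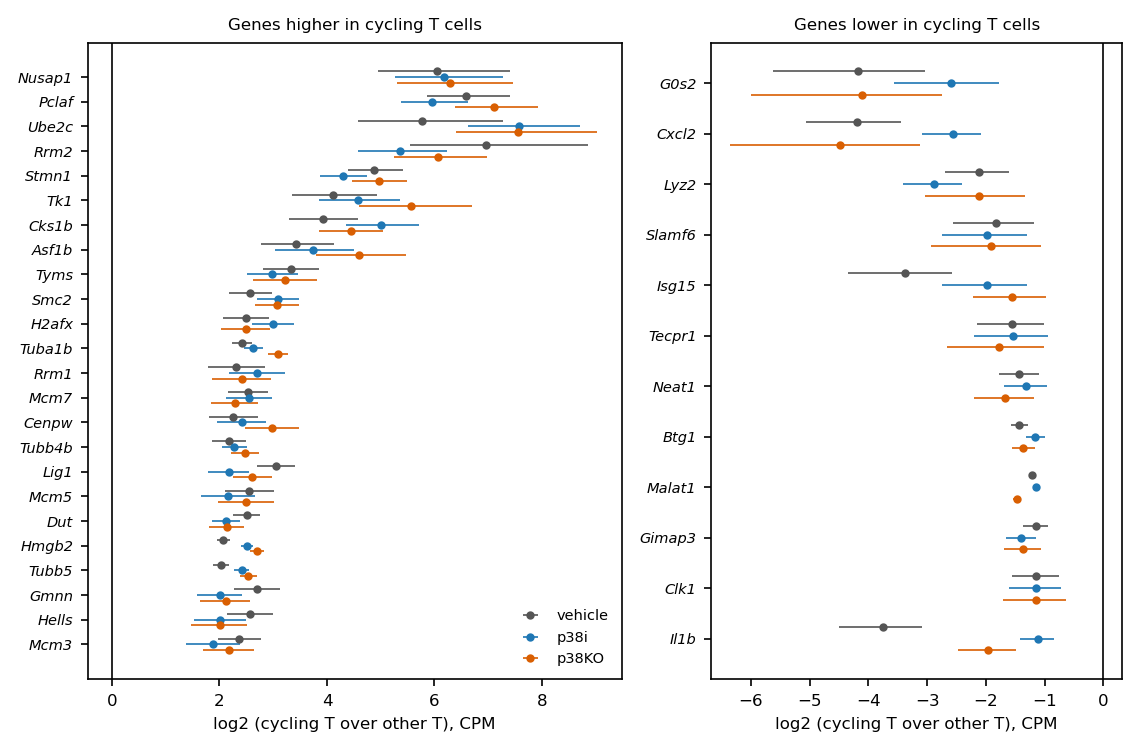
Log2 ratio of CPM in cycling over other T cells for the 24 genes chosen as higher and the 12 chosen as lower, with 95% counting intervals, for each library. In the left panel the intervals of every gene lie above 1, with Nusap1, Pclaf, Ube2c and Rrm2 at 5.35 to 7.57; in the right panel every interval lies below 0.

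The promoters of the first 4 of these genes are shown because cell-cycle genes share short promoter elements. The motifs searched on both strands were CCAAT (the NF-Y box), TTTGAA and TTTAAA (forms of the CHR element of genes expressed in G2 and M), and TTGGCGC and TTCCCGC (forms of the E2F site). Matches can overlap, as TTGGCGC can share letters with a minus-strand CCAAT match, and as plus-strand and minus-strand CCAAT matches do at 1 place in the Ube2c window. Each sequence runs 5′ to 3′ on the plus strand from 250 bases before to 50 after the start site in RefSeq annotation of GRCm38.p6, with matches in capitals. Nusap1 lies at chr2:119618048-119618347, Pclaf at chr9:65890073-65890372, Ube2c at chr2:164769679-164769978 and Rrm2 at chr12:24708004-24708303.
Nusap1: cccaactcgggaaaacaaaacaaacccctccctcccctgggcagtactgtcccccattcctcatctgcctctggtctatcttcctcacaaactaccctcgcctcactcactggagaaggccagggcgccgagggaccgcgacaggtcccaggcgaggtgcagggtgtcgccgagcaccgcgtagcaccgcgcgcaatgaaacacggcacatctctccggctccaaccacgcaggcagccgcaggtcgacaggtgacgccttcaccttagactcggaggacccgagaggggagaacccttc
Pclaf: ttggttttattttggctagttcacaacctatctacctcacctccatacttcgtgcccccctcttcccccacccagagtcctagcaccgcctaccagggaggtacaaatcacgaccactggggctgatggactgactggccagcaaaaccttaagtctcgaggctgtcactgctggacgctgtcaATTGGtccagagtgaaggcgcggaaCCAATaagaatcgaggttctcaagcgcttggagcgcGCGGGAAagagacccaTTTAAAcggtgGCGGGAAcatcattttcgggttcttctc
Ube2c: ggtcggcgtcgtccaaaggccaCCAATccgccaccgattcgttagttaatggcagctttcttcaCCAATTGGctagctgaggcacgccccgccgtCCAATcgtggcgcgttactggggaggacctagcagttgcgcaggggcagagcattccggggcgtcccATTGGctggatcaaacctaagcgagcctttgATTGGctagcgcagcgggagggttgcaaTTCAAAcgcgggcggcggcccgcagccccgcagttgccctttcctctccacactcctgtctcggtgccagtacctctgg
Rrm2: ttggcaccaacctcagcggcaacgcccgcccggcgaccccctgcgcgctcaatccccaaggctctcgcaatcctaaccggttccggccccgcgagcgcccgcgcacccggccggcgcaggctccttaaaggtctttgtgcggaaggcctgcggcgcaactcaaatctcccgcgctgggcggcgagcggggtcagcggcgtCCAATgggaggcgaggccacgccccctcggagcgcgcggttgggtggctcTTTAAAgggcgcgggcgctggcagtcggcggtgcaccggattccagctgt
The Ube2c window held 6 CCAAT matches and 1 TTTGAA match on the minus strand. The Pclaf window held 2 CCAAT, 2 TTCCCGC and 1 TTTAAA match, the Rrm2 window 1 CCAAT and 1 TTTAAA match, and the Nusap1 window none. Among the 24 genes, 21 had an entry, and CCAAT was found for 66.7% of them against 42.4% of 6842 tested genes and 41.1% of all 27025 genes with a promoter of this length. TTTGAA was found for 33.3% against 14.2% and 20.2%, TTTAAA for 19.0% against 10.6% and 14.9%, TTGGCGC for 19.0% against 5.54% and 2.85%, and TTCCCGC for 23.8% against 10.3% and 5.29%. Of the 12 lowest genes 10 had an entry, with CCAAT and TTTAAA for 30% each and the other motifs for 0%. For 185 genes higher in all 3 libraries, CCAAT was found for 63.2%, TTTGAA for 31.9% and TTTAAA for 14.6%. In the same 185 genes TTGGCGC was found for 16.8% and TTCCCGC for 31.9%. A match shows only that the letters are present.

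The same 24 genes were then read within CD8 and CD4 T cells, which are the cells they were ranked on, so that these values are a description only. They were higher in cycling than in other CD8 T cells in all 3 libraries (24 of 24 each, median log2 ratios 2.70, 2.72 and 3.10), where 5.78%, 5.8% and 5.81% of all genes were higher. In CD4 T cells 20, 21 and 24 were higher, with 4, 2 and 0 short of counts, beside 6.94%, 7.22% and 8.14% of all genes. Macrophages, which are outside the T cells, were divided by the same 4 rule genes into 43, 37 and 143 cycling cells and the rest, and all 24 genes were higher in the cycling macrophages of each library (5.89%, 4.37% and 5.46% of all genes), with medians of 2.81, 2.77 and 2.66. The median ratio over all genes in macrophages was 0.03, 0.07 and 0.02. Because the rule genes also set the split of the macrophages, these values too are a description only. They show that the genes highest in cycling T cells were also higher in macrophages chosen in the same way.

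Among the 12 genes that were lowest were Btg1 and Slamf6. Btg1, an antiproliferative factor of quiescent lymphocytes, had 737, 617 and 657 CPM in cycling T cells and 1986, 1376 and 1688 CPM in other T cells (log2 ratios -1.43, -1.16 and -1.36), and it was higher still in granulocytes, at 3029, 2313 and 2938 CPM. Slamf6, a receptor of memory-like T cells, had 33.7, 33.9 and 30.8 CPM against 119, 133 and 116 CPM, with ratios of -1.83, -1.98 and -1.92, and 5.32, 4.13 and 11.0 CPM in granulocytes. The nuclear noncoding RNAs Malat1 (8007, 7998 and 6586 CPM against 18631, 17774 and 18257 CPM) and Neat1, the GTPase gene Gimap3 and the splicing kinase gene Clk1 were lower as well, of which Malat1 (31533, 29073 and 26236 CPM) and Neat1 were above the level of other T cells in granulocytes and Gimap3 (3.59, 2.75 and 5.67 CPM) was far below it. In the fixed lists, the quiescence genes Btg1, Btg2, Pdcd4 and Txnip were lower in all 3 libraries and the CDK inhibitor gene Cdkn2c was higher (log2 ratios 1.14, 1.49 and 1.22), of 19 with enough counts. These stand beside 1.29% of all genes lower and 2.69% higher. Il7r, the receptor of the survival cytokine IL-7, had 189, 206 and 201 CPM against 442, 504 and 407 CPM, and with S1pr1 and Slamf6 it made 3 of 13 naive and memory genes that were lower, beside 1.29% of all genes. Of 14 interferon-response genes 5 were lower in all 3 libraries (Ifit1, Ifit3, Isg15, Rsad2 and Gbp2) and 9 were not, beside 1.29% of all genes that were lower. Isg15 had 20.2, 33.9 and 67.1 CPM against 211, 134 and 198 CPM in other T cells, and 1763, 815 and 2010.2 CPM in granulocytes.

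Others of the lowest genes were more abundant in granulocytes than in T cells by a wider margin. G0s2 had 10.1, 22.6 and 11.2 CPM in cycling T cells, 183, 137 and 194 CPM in other T cells and 4905, 2841 and 3946 CPM in granulocytes. Cxcl2 had 23.6, 66.0 and 11.2 CPM in cycling and 432, 389 and 249 CPM in other T cells, and 8993, 5225 and 6772 CPM in granulocytes. Il1b and Lyz2 followed the same order. The 7 granulocyte markers summed to 288, 8109 and 327 CPM in cycling T cells and to 5119, 7450 and 3862 CPM in other T cells, with S100a9 the most abundant in each and none of the 7 at 0 in cycling T cells, so that cycling T cells held less of this RNA than other T cells in vehicle and p38KO. In p38i the sum rested on 3 of 45 members, each with over 100 counts of S100a8 and S100a9. The part of granulocyte RNA in the lower levels of G0s2, Cxcl2, Il1b, Lyz2, Isg15, Btg1, Malat1 and Neat1 was not tested. In macrophages 4, 2 and 2 of the 12 genes were lower in cycling cells, beside 4.8%, 3.08% and 3.33% of all genes.

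The counts of T cell function genes past 2-fold in all 3 libraries are given beside the 2.69% of all genes higher and 1.29% lower, and nothing is read from a count near those shares. Several genes differed in opposite directions between libraries (Gzma had a log2 ratio of cycling over other T cells of 2.97 in p38i and no count in cycling T cells of p38KO). None of 11 T cell receptor and signalling genes, 11 inhibitory receptor genes, 8 regulatory T cell genes and 10 costimulatory genes with enough counts was higher or lower in all 3 libraries. Of 21 cytotoxic and effector genes, 1 was lower in all 3, Ccl5, a chemokine of effector T cells, with 659, 817 and 322 CPM against 2558, 1763 and 1143 CPM. Gzmb, the granule protease of killer cells, had 703, 479 and 288 CPM in cycling and 891, 476 and 388 CPM in other T cells, and Pdcd1, which encodes PD-1, had 192, 264 and 103 CPM against 192, 166 and 143 CPM. Both were within 2-fold of the other T cells in each library. Growth genes were mixed, with Ran and Ranbp1, of nuclear transport, higher in all 3 libraries (Ran 792, 945 and 892 CPM against 291, 280 and 301 CPM) and the other 16 of 18 not.

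In p38i, cycling T cells were compared with those of the vehicle library. Of 6120 genes with enough counts, 202 (3.3%) were higher and 102 (1.67%) lower in p38i, with a median log2 ratio over all genes of 0.03. G2 and M genes were higher, with 18 of 45 past 2-fold and none lower (median 0.81). S-phase genes were not, with 0 of 40 higher and 2 lower, Cdc6 and Wdr76 (median -0.23). The spindle and cytokinesis list had 12 of 28 higher (median 0.92) and the kinetochore list 6 of 18 (median 0.49). Ube2c had 63 counts in 13 of 46 vehicle members and 298 counts in 18 of 45 p38i members, or 106 and 562 CPM (log2 ratio 2.40, interval 2.01 to 2.82, and 2.10 without the member with the most counts). Cenpf, a kinetochore protein, had 77.5 and 213 CPM. In other T cells, G2 and M genes had 2 of 23 higher (2.26% of all genes) and a median of 0.14 (all genes 0.08). Limited to members with at least 3 of the 4 rule genes, 20 in vehicle and 27 in p38i, 11 of 45 G2 and M genes were higher (3.6% of all genes) with a median of 0.61, against 0.07 over all genes.

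Ctla4, the inhibitory receptor CTLA-4, was lower in the p38i library. It had 161 counts in 28 of 46 vehicle members and 29 counts in 19 of 45 p38i members, or 271 and 54.7 CPM (log2 ratio -2.31, interval -2.93 to -1.73). The ratio was -2.10 without the richest member, -2.25 in CD8 members alone and -0.71 in other T cells. Rgs1, a regulator of G protein signalling, had 428 and 123 CPM (log2 ratio -1.80), Dusp2, a phosphatase of MAP kinases, 214 and 58.5 CPM (-1.87), Cd69, an early activation receptor, 130 and 35.8 CPM (-1.86) and Jun 248 and 113 CPM (-1.13). In other T cells these 4 genes had ratios of -1.58, -1.26, -1.48 and -0.83. Cd160 (118 and 39.6 CPM), an inhibitory receptor, and Serpinb6b (164 and 60.3 CPM), a protease inhibitor, were also lower. Among 9 inhibitory receptor genes Ctla4 and Cd160 were lower, beside 1.67% of all genes, and Lag3 (241 and 213 CPM), Havcr2 (91.0 and 96.2 CPM) and Pdcd1 (192 and 264 CPM) were within 2-fold.

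Some p38i differences rested on single cells. The calgranulin genes of granulocytes, S100a8 with 54 and 1697 counts and S100a9 with 87 and 2334 counts, had log2 ratios of 5.14 and 4.91. However, 69.8% and 63.2% of the p38i counts were in 1 CD8 member, which had 2659 counts of both together, and 2 further members had 902 and 351, while no other p38i member had more than 10. Without these 3 members, a choice made on these counts, which itself sets the values of S100a8 and S100a9, the ratios of S100a8 and S100a9 were 0.07 and 0.00, and 267 genes were past 2-fold instead of 304. Retnlg, Wfdc21 (0 and 76 counts, at least 28.3-fold higher on a floor of 3 counts in the vehicle library), Slpi, Wfdc17 and Prok2 had 60.4 to 98.2% of their p38i counts in 1 member. Ccl3 (46 and 258 counts, 65.1% in 1 member) had a log2 ratio of 2.65, and of 1.17 without it. The granzyme Gzmf went the other way, with 118 counts in 5 vehicle members, 76.3% of them in 1, and 6 counts in p38i, but among members with at least 3 of the 4 rule genes its log2 ratio was 2.40, the opposite direction. Serpinb9b, an inhibitor of granzyme-like proteases, had 79 counts in 9 vehicle members and none in p38i (at least 23.5-fold lower). Its gene family has close copies, and their counts are uncertain, as for Gzmf. In the cytotoxic list 5 of 23 genes were higher (Ccl3, Ccl4, Gzma, Tnf and Eomes) and 5 lower (Gzmc, Gzmd, Gzme, Gzmf and Xcl1), beside 3.3% and 1.67% of all genes.

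In p38KO, 265 (4.69%) of 5654 genes were higher and 151 (2.67%) lower than in vehicle, with a median log2 ratio of 0.13. With scaling by the median ratio of genes, which removes this shift, the numbers were 183 and 192. This comparison uses the same vehicle library as that of p38i, so the values stand side by side and are not independent. Cytotoxic genes were lower, with 13 of 21 past 2-fold and 1 higher (median -1.26). Prf1, which encodes perforin, the pore-forming protein of killer cells, had 337 counts in 22 of 46 vehicle members and 6 counts in 3 of 28 p38KO members, or 568 and 16.8 CPM (343 CPM in p38i). Its log2 ratio was -5.08 (interval -6.54 to -3.94), -4.68 without the richest member, -4.44 in CD8 members alone and -2.67 in other T cells. Serpinb6b had 97 counts in 24 vehicle members and none in p38KO (at least 19.5-fold lower), where 60.3 CPM were seen in p38i. Gzma had 85 counts in 4 vehicle members and none in p38KO (at least 17.1-fold lower), and Serpinb9b 79 and none (at least 15.9-fold lower). Gzmb was at 703 and 288 CPM and Nkg7 at 1693 and 708 CPM, log2 ratios of -1.29 and -1.26. In other T cells 9 of 23 cytotoxic genes were lower in p38KO (1.71% of all genes) and 1 higher (2.67% of all genes). The list median there was -0.65, against 0.11 over all genes.

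Of 9 inhibitory receptor genes 5 were lower and none higher (median -1.11), beside 2.67% of all genes lower and 4.69% higher. Lag3, an inhibitory receptor that binds MHC class II, had 143 counts in 27 vehicle members and 13 in 7 p38KO members, or 241 and 36.4 CPM (log2 ratio -2.73, interval -3.67 to -1.91, and -4.03 in CD8 members alone). Havcr2, which encodes TIM-3, had 91.0 and 25.2 CPM. Irf8, a transcription factor (255 and 36.4 CPM), Klre1, a lectin-like receptor of killer cells (148 and 14.0 CPM), Nrgn (322 and 61.5 CPM), Ccl4 (135 and 14.0 CPM) and the effector cytokine Ifng (300 and 30.8 CPM) were the others among the 10 lowest. Of the Ifng counts in vehicle, 74.7% were in 1 member, and without it the log2 ratio went from -3.29 to -1.34. Among members without a C1q count, 33 in vehicle and 13 in p38KO, the lower level of both cytokine genes was not seen. The log2 ratios there were 0.48 for Ifng and 0.15 for Ccl4, on too few p38KO counts to show a direction. CD8 cells made up 63.0% of the members in vehicle and 35.7% in p38KO, and the lower levels of Prf1, Lag3, Irf8 and Nrgn (-4.10 and -3.83 for Irf8 and Nrgn) remained among CD8 members alone, of which p38KO had 10. In CD8 members alone, 11 of 19 cytotoxic genes and 6 of 9 inhibitory receptor genes were lower, beside 4.83% of all genes, and none of either list was higher.

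G2 and M genes were higher in the cycling T cells of p38KO, as they were in p38i, against the shared vehicle library, with 17 of 42 past 2-fold and none lower (median 0.93). The S-phase list had 1 of 40 higher, Rrm2, and a median of 0.01. Beside these, 4.69% of all genes were higher and 2.67% lower, with a median of 0.13. With at least 3 of the 4 rule genes, 20 vehicle and 16 p38KO members, 4 of 42 G2 and M genes were higher (5.49% of all genes) and the median was 0.56, against 0.11 over all genes. Among CD8 members alone 1 of 32 was higher, beside 4.5% of all genes, and 1 lower, beside 4.83% (median 0.58).

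Several genes were higher in p38KO across many members. Pmepa1, a target and brake of TGF-beta signalling, had 52 counts in 22 of 46 vehicle members and 147 in 26 of 28 p38KO members, or 87.7 and 411 CPM (log2 ratio 2.23, interval 1.76 to 2.71, and 2.80 in CD8 members alone). Other T cells had 191 and 514 CPM, a ratio of 1.43. Hnrnpll, a splicing factor of activated T cells, had 30.3 and 171 CPM (2.49) and was found in 12 and 20 members, and Tesc had 15.2 and 115 CPM (2.92) in 7 and 15 members. Of 10 interferon-response genes 4 were higher (Isg15, Isg20, Ifi27l2a and Iigp1) and none lower (median 0.82), beside 4.69% of all genes higher and 2.67% lower. In other T cells 0 of 14 were past 2-fold in either direction (median 0.42, against 0.11 over all genes), in CD8 other T cells alone 6 of 14 were higher (2.87% of all genes), and in other T cells Isg15 was at 211 and 198 CPM. In cycling T cells Ifi27l2a was at 474 and 1459.8 CPM. By contrast, Ccl1 and Penk had 78.0% and 88.9% of their p38KO counts in 1 member, and without it their log2 ratios went from 3.07 and 2.29 to 0.93 and -0.71. Mgl2 (0 and 42 counts, in 2 p38KO members, at least 23.2-fold higher), Cst3 (386 and 2928 CPM), H2-Aa, H2-Ab1 and H2-Eb1, of which the last 3 present antigen on dendritic cells, macrophages and B cells, had 48.6 to 57.4% of their counts in 1 p38KO member. In CD8 members alone Cst3, H2-Aa and H2-Ab1 were lower in p38KO (-1.14, -3.55 and -3.41) and H2-Eb1 had no count.

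**Figure D5:**
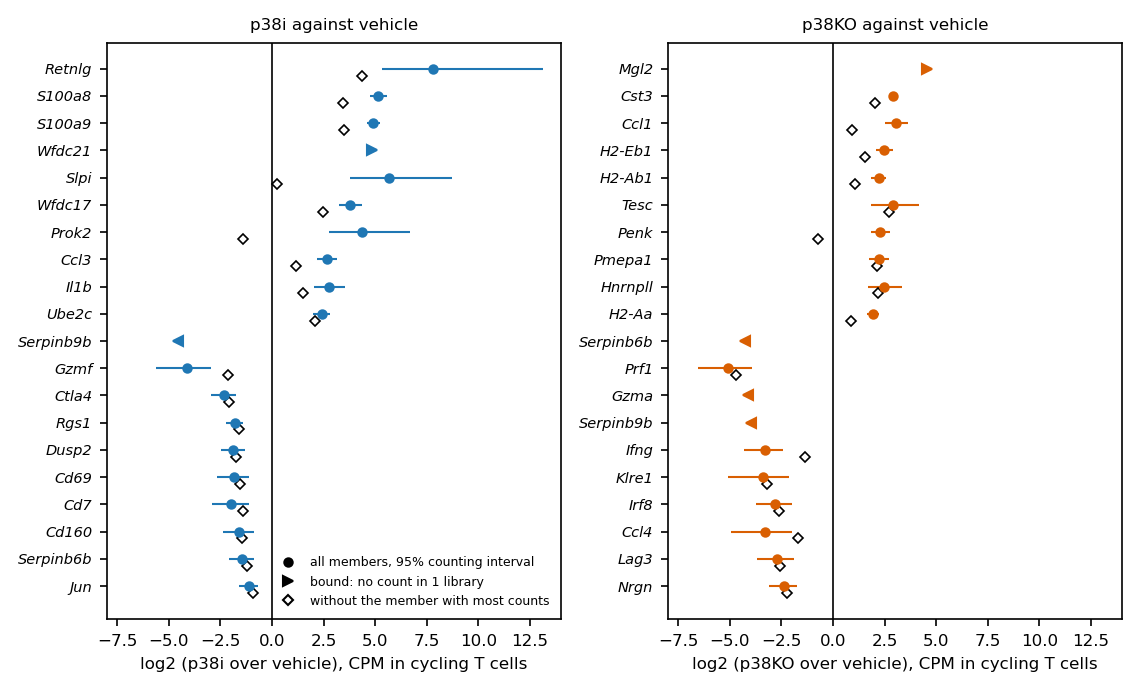
Log2 ratio of CPM in cycling T cells of p38i (left) or p38KO (right) over the shared vehicle library for the 10 genes in each direction whose intervals lay farthest from 0, with 95% counting intervals. Triangles are bounds for genes without a count in 1 library, and diamonds leave out the member with the most counts: Slpi, Prok2 and Penk drop to 0.23, -1.38 and -0.71, while Ctla4, Prf1 and Pmepa1 stay at -2.10, -4.68 and 2.14.

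Markers of other cells were counted in the members. The 8 macrophage markers summed to 104, 117 and 143 CPM in cycling T cells against 128, 225 and 285 CPM in other T cells, with Apoe, Cd68 and Apoe the most abundant and 1, 3 and 2 of the 8 at 0. A C1q count was present in 13, 4 and 15 of the 46, 45 and 28 members, and none had 5 or more. The 6 monocyte markers summed to 630, 607 and 506 CPM (most abundant Ly6c2, which T cells also express), and 1 was at 0 in each library. The 6 NK markers summed to 194, 126 and 16.8 CPM, of which Klre1 made up most, and 3, 4 and 4 were at 0. The 6 mast cell and basophil markers summed to 0, 0 and 5.59 CPM, and the 5 tumor epithelial markers to 3.37, 5.66 and 19.6 CPM with Epcam the most abundant in vehicle and p38KO. Dendritic cell markers summed to 28.7, 81.1 and 16.8 CPM, with any count in 2, 2 and 3 members. The part of these transcripts in the gene differences above was not tested, except where a value without the members concerned is given.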

How the data were processed

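The deposited files hold whole-number UMI counts per gene and barcode of 3 libraries (10x 3′ kit), which the authors made with Cell Ranger (6.0.0 in the file headers) on mouse genome build mm10 (annotation release not given in the sources used here). The submitters' notes also name R 4.2.1 and Seurat 5. Each library was pooled from 3 tumors before sorting of live CD45-positive cells. The filter on cells was the study's stated one. It left 12472 of 16143 barcodes. Doublets were not called, and no cell annotation was used.

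Counts were summed over cycling T cells and over other T cells of a library (Python 3.11.15, numpy 2.4.6, scipy 1.17.1, pandas 2.3.3, matplotlib 3.10.9) and scaled to CPM of that sum. Log2 ratios carry exact binomial intervals, shares exact Clopper-Pearson intervals and levels exact Poisson intervals, all at 95% and for counting error only. A gene was called from 2-fold with an interval away from 0 and at least 20 counts. Where a gene had no count on 1 side, 0.5 counts stood in for calls and list medians. The bounds printed for such genes used a floor of 3 counts per library. No test was possible with 1 library per group. On simulated counts, 94.5% (p38i, 6100 genes) and 91.9% (p38KO, 5641 genes) of changed genes were called in the right direction. These shares cover changed genes only, and no share of unchanged genes that were called is given. How often the calls on the measured p38i and p38KO counts are right was not tested.

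The named genes were the 24 highest and 12 lowest in cycling T cells by their least extreme library, from 100 CPM, the 10 in each direction for p38i and p38KO with the interval farthest from 0, up to 4 of highest CPM in each of 35 lists, list members behind small counts, and fixed T cell genes. Mitochondrial, ribosomal protein, Gm and Rik genes were left out of the rankings. The members, lists and rules were chosen with earlier results of these data known. Leaving out S100-rich or single richest members was chosen after seeing the data.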

Additional observations from a re-analysis of the deposited data

Results flagged for a closer look

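For 10 of the named genes the log2 ratio of cycling over other T cells lay past 2-fold in opposite directions in 2 libraries. With 1 library per group these differences between libraries were not tested, and over all genes 25 of 8549 had calls in opposite directions in 2 libraries. Gzma had a ratio of 2.97 in p38i and of at most -5.14 in p38KO, where cycling T cells had no count. Ccl3 had 1.11 in p38i and at most -3.73 in p38KO, again with no count. Serpinb6b had 1.01 in vehicle and at most -1.13 in p38KO. Ifng had 2.11 in vehicle and -1.95 in p38KO, and 74.7% of its vehicle counts were in 1 member. Gzmf had 2.24 in p38KO, where 1 member held all of its counts, and -1.37 in p38i. Tesc had 1.13 in p38KO and -1.49 in p38i. The granulocyte genes Retnlg (1.64 in p38i, -4.20 in vehicle) and Prok2 (1.09 and -2.33) had 91.1% and 98.2% of their p38i counts in 1 member. The gamma chain genes Tcrg-C2 (1.33 in p38i, -1.98 in p38KO) and Trgv2 (1.02 and -2.36) belong to families of near-identical copies, and their counts are uncertain.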

How the results depend on the processing

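No paired analysis was possible because each group is 1 library. Cycling shares in vehicle, p38i and p38KO were 27.4%, 21.2% and 21.7% with at least 1 of the 4 cell-cycle genes, 3.54%, 3.88% and 2.85% with at least 3, and 2.65%, 2.88% and 2.14% at 1500 UMIs per cell. At that depth CD8 cells in p38i were 92% of the cycling T cells classed as CD8 or CD4. They were 51.1% of all cycling T cells. Genes higher in all 3 libraries numbered 230, and 354 at 1.5-fold, 35 after thinning, 105 in CD8 T cells and 145 without any C1q count. Genes past the fold in p38i numbered 304, and 481 at 1.5-fold, 517 from 1 count, 740 by the mean of the cells' own CPM and 154 in CD4 T cells. For p38KO they numbered 416, and 688, 643, 814 and 205 in the same order. The setting by the cells' own CPM had no counting interval, so its 740 and 814 genes passed a looser rule than the others. Signs turned as follows. In CD8 T cells the ratio of Slpi in p38i was -0.71, and in p38KO those of Cst3, Ccl1, H2-Ab1 and H2-Aa were -1.14, -3.20, -3.41 and -3.55, with bounds of -2.48 for H2-Eb1 and -0.16 for Penk. Without C1q counts Prok2 in p38i was -1.88, Ifng and Ccl4 in p38KO were 0.48 and 0.15, and Lyz2 over other T cells in p38KO was 0.26. With at least 3 cell-cycle genes, Prok2 and Gzmf in p38i were -1.19 and 2.40. Gzmf in p38i and Ifng and Ccl4 in p38KO had few counts in these settings, so their turned signs are not read as reversals. Without the richest member, Prok2 was -1.38 and Penk -0.71. The cause of these changes was not tested beyond what each setting removes. Of 60 values for shares and gene counts 38 stayed within their limits, as did 501 of 546 list medians and 350 of 432 ratios of the genes named for cycling over other T cells (81 moved, 1 turned). Of 193 ratios of the genes named for p38i and p38KO, 120 did, 59 moved and 14 turned. The members are few, at most 46 in a library, and depth within them limits genes of low level.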

Other observations

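Nuclear genes of respiration had medians above that of all genes in each library, below 2-fold. None of 16 nuclear genes of respiration was past 2-fold in all 3 libraries, with list medians of 0.56, 0.38 and 0.74 in vehicle, p38i and p38KO against -0.03, -0.09 and -0.04 over all genes. None of 17 glycolysis genes was past 2-fold in all 3, with medians of 0.31, 0.03 and -0.18. Tcrg-C2, a constant segment of the T cell receptor gamma chain, had 113, 130 and 14.0 CPM in cycling T cells and 87.5, 51.6 and 55.1 CPM in other T cells, although Trdc was at 0 in all of them by the rule. Siglech, a marker of plasmacytoid dendritic cells, had 22 counts in the cycling T cells of p38i, all of them in 1 member, against 0.657 CPM in other T cells. Macrophages had at least 2 of the 4 cell-cycle genes in 26.7%, 19.6% and 26.0% of cells at their own depth and in 6.21%, 2.65% and 5.27% at 1500 UMIs.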
